A study of Drosophila melanogaster with 16 samples.

Results

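The POU-domain transcription factors of Drosophila melanogaster are vvl (ventral veins lacking, also called drifter or dfr), nub (nubbin), pdm2, pdm3 and acj6 (abnormal chemosensory jump 6). All 5 were found by symbol in both deposited expression tables, so no member was lost to a filter, and they are 5 of the 12984 genes present in either table. Proteins of this family bind DNA through a POU-specific domain joined by a flexible linker to a POU homeodomain, and they act largely as regulators of cell identity in the nervous system, the trachea and the discs. The family drew attention here because 1 of its members, dfr, was the mutated gene.

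The samples came from wandering third-instar larvae grown untreated at 25 °C. The sample records give w[1118] as the background strain of every group, but the study's methods say that the mutant used here had been crossed only to a balancer stock. Larvae without the mutation (control) were compared with homozygous dfr14 larvae, in which a small CRISPR/Cas9 deletion lies just after the first stop codon of dfr. The deletion shifts the frame of the sequence that is reached by stop codon readthrough, so that the short protein Dfr-S can still be made and the extended protein Dfr-L cannot. For each genotype, 4 libraries were made from the brain-ring gland complex (BRGC), made up of the brain and the ring gland with its prothoracic gland, and 4 from the rest of the body, without the BRGC, the mouth hooks and the salivary glands. The mutant is 1 line, made in a Cas9 strain, so the allele and the remaining background of that line cannot be told apart, and the source does not say how many larvae were pooled for a sample. The genotype entries of the sample records follow the tissue and go against the sample titles, and the titles were used.

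Each library held between 17.05 and 30.12 M counted reads (22.48 ± 3.64 M, SD, n = 16). The labelled tissues were checked against their defining markers: the summed level of 6 neuronal markers was 1027 to 1929 counts per 1000000 counted reads (CPM) in the BRGC libraries and 162 to 248 CPM in the body libraries, and that of 6 fat body markers was 68.2 to 4029 CPM in the BRGC and 37490 to 117200 CPM in the body. Control body library 4 had no read for 1685 genes, where the remaining body libraries lacked 32 to 189, and its 6 testis markers summed to 0.046 CPM, where they summed to 42.8 to 342 CPM in the rest. The salivary gland markers, whose tissue had been removed, summed to 10170 and 1295 CPM in control body libraries 3 and 4 and to at most 8.74 CPM in the other body libraries. No label tells whether the 4 libraries of a group came from separate cultures, so the tests measure only the spread between these libraries.

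The structure of the genes bears on what a gene-level read count can show. vvl (FBgn0086680) lies on the plus strand of chromosome 3L at 6790158 to 6794941 (Ensembl annotation of BDGP6) and is a single exon of 4784 bases. Its 5 annotated transcripts differ in where translation ends: 2 stop after 427 codons, at 6792107 to 6792109, and the others run 286, 299 and 315 codons further, to stop codons that start at 6792965, 6793004 and 6793052. These readings share the same exon, so the read count of vvl is the same whether or not the first stop codon is read through. The count therefore does not check the mutant label, and says nothing of the balance between Dfr-S and Dfr-L.

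nub (FBgn0085424, 12587625 to 12628135) and pdm2 (FBgn0004394, 12657165 to 12686306) are neighbours on the plus strand of chromosome 2L. They are separated by 29029 bases with no annotated gene lying wholly between them, and their merged exons hold 5278 and 4624 bases. pdm3 (FBgn0261588) spans 68.8 kb of the plus strand of chromosome 2R, from 8327490 to 8396280, with 12 merged exons of 5381 bases. acj6 (FBgn0000028) lies on the minus strand of the X chromosome at 15350239 to 15379064, with 10 merged exons of 4433 bases. Several genes overlap these spans, among them Ref2 in nub, CG8701, CG2127 and CG18449 in pdm3 and Pp1-13C in acj6. None of them shares an exon base with a member.

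Levels between the genes were compared per length, as reads per kilobase of exon per M reads (1000000). In control BRGC pdm3 was the most abundant member at 27.3 ± 2.62 (SD, n = 4), followed by vvl at 13.6 ± 0.49, nub at 4.40 ± 0.45, acj6 at 3.81 ± 0.72 and pdm2 at 1.12 ± 0.43. The libraries of nub (3.83 to 4.84) and acj6 (3.28 to 4.87) overlapped, so these neighbours in the order did not differ beyond their spread, whereas the other neighbours did not overlap. In control body vvl led at 10.9 ± 1.09, followed by nub at 5.31 ± 0.76, pdm3 at 2.62 ± 0.71, pdm2 at 1.82 ± 0.28 and acj6 at 0.40 ± 0.35. Here pdm3 (1.89 to 3.54) and pdm2 (1.48 to 2.101) overlapped. The median gene lay close to vvl: 43.7% of the genes with an annotated length were below vvl in control BRGC and 51.5% in control body, while only 10.7% and 16.4% were below pdm2.

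In dfr14 BRGC the order of the means was the same, but vvl and pdm3 no longer stood apart. pdm3 was at 22.8 ± 2.68 reads per kilobase per M and vvl at 21.8 ± 2.33, with fully intermingled libraries (18.8 to 24.4 and 18.9 to 24.2). Below them came nub at 4.17 ± 0.44, acj6 at 3.24 ± 0.53 and pdm2 at 1.45 ± 0.099. In dfr14 body the order was vvl at 16.02 ± 1.45, nub at 7.17 ± 1.35, pdm2 at 2.27 ± 0.47, pdm3 at 1.97 ± 0.57 and acj6 at 0.31 ± 0.14, and pdm2 and pdm3 again overlapped.

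**Figure D1:**
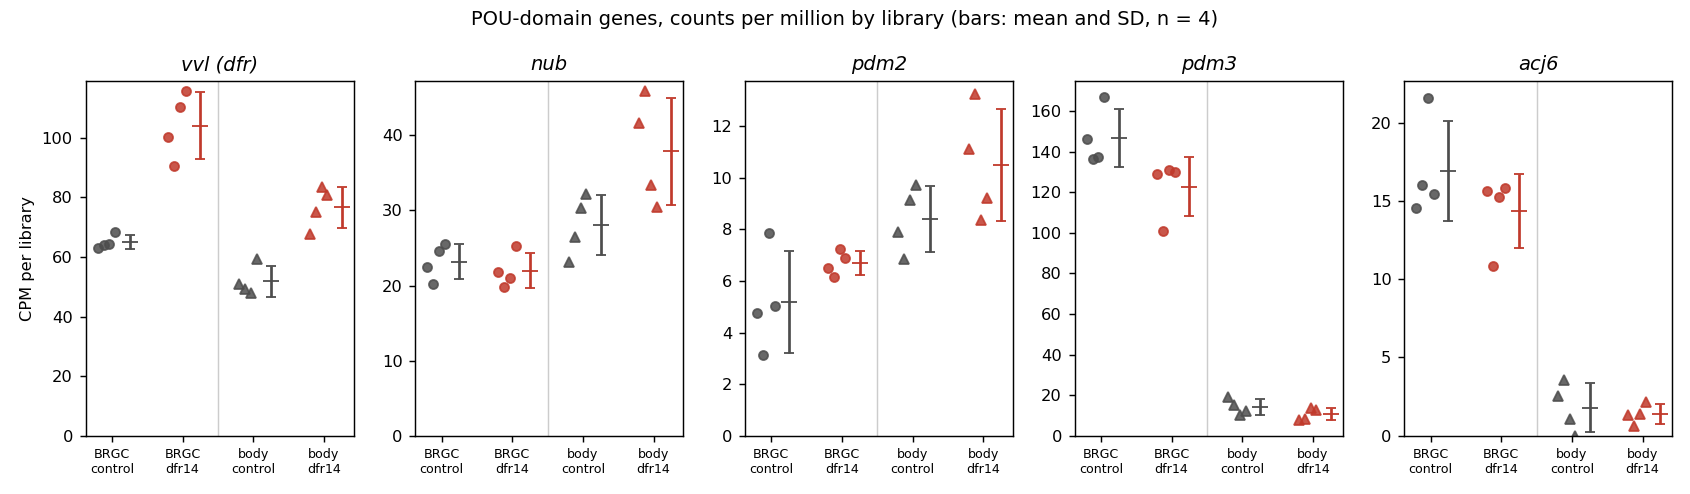
Level of each POU-domain gene in CPM (vertical axis, from 0, a scale of its own in each panel) in the 4 libraries of each group; circles are BRGC, triangles body, grey control, red dfr14, and the bars give mean and SD (n = 4). In CPM as scaled in the deposited values, the dfr14 libraries of vvl lie above all control libraries in both tissues. By counted reads alone they overlap in the body. pdm3 and acj6 are low in the body.

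vvl, which directs tracheal and vein development and, in the prothoracic gland, genes of ecdysone synthesis, was the only member whose genotype difference passed the test, and it did so in BRGC. There the control libraries read 63.1, 63.9, 64.3 and 68.4 CPM, and the dfr14 libraries 100.2, 90.5, 110.4 and 115.6 CPM. The groups were apart, and the lowest dfr14 library exceeded the highest control library. The mean rose from 64.9 ± 2.36 to 104.1 ± 11.1 CPM (SD, n = 4 each), a log2 fold change of 0.68 with an SE of 0.086 and an adjusted p of 0.000769 (limma, 210th of 9731 genes by p). These levels rest on 1364 to 2887 reads per library.

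In the body, vvl read 51.0, 49.3, 47.8 and 59.4 CPM in control and 67.7, 75.0, 83.3 and 80.7 CPM in dfr14. In these scaled CPM, again no dfr14 library fell below a control library. By counted reads alone the genotypes overlapped. dfr14 library 1 had 999 reads of vvl among 18.5 M, and control library 1 had 1050 among 17.8 M. The means were 51.9 ± 5.19 and 76.7 ± 6.94 CPM, and the log2 fold change was 0.56 with an SE of 0.11, which missed the threshold of 0.05 after adjustment over 12509 genes (adjusted p = 0.0663, limma). The body value depends on how libraries are scaled, since it was 0.32 with scaling to library size alone. The median over all genes moved with it, from 0.12 to -0.12, and vvl stood 0.44 above that median under both scalings. Markers of other tissues moved with the same comparison: the 6 fat body markers summed to 37490 to 58680 CPM in control body and 71020 to 117200 CPM in dfr14 body, although 1 of them, Fbp2, was at 6480 CPM in control and 1771 CPM in dfr14, and the 6 hemocyte markers to 317 to 677 CPM and 672 to 2148 CPM. Of the 13 marker lists none had a gene called in the body by limma or with voom weights, although an unadjusted p under 0.05 was reached by 5 of the 6 hemocyte markers (all with higher means in dfr14), 5 of the 6 salivary gland markers (all with lower means), 3 of the 6 neuronal markers (Syt1 with a higher mean, Rdl and futsch with lower means) and 1 each of the fat body (Fbp2), ring gland and gut markers, and the part of these cells in the level of vvl was not tested. The difference between the tissues in the genotype effect on vvl, body minus BRGC, was -0.11 with an SE of 0.14 (95% interval -0.41 to 0.18, limma adjusted p = 0.770).

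The balance of vvl with the other members was then examined as a ratio of reads within a library, a measure that no scaling between libraries touches. In control BRGC there were 0.410 to 0.469 reads of vvl for each read of pdm3, and in dfr14 BRGC 0.777 to 0.895. The ratio of vvl to nub was 2.61 to 3.16 in control and 4.55 to 5.24 in dfr14, and that of vvl to acj6 was 2.98 to 4.43 and 6.42 to 8.34. In each of these 3 ratios the BRGC genotypes did not overlap, whereas vvl to pdm2 did (8.17 to 20.5 and 14.7 to 16.8). All the ratios share vvl, whose own CPM did not overlap between the genotypes, so they give no evidence separate from the level of vvl. In the body the ratio of vvl to pdm3 was 2.68 to 4.88 in control and 6.01 to 9.01 in dfr14, without overlap, whereas the other 3 ratios overlapped. vvl to nub was 1.58 to 2.201 and 1.63 to 2.65, vvl to pdm2 5.24 to 7.20 and 5.66 to 9.95, and vvl to acj6, in the 3 control libraries with a read of acj6, 13.9 to 45.2 and in dfr14 37.3 to 118.5.

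Put as shares of the reads per kilobase of the 5 genes, vvl took 27.1% ± 1.02 (SD, n = 4) in control BRGC and 40.8% ± 1.35 in dfr14 BRGC, and pdm3 took 54.3% ± 2.52 and 42.7% ± 1.40. The 5 shares of a library are bound to each other, so a higher level of vvl by itself lowers the share of pdm3. In the body vvl took 51.6% ± 1.83 in control and 57.7% ± 4.15 in dfr14. The shares of vvl overlapped there by little, at 50.4 to 54.3% and 54.1 to 61.4%. The summed reads per kilobase per M of the 5 genes were 50.2 ± 3.32 in control BRGC and 53.4 ± 5.73 in dfr14 BRGC, and 21.0 ± 1.33 and 27.8 ± 1.23 in the body.

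**Figure D2:**
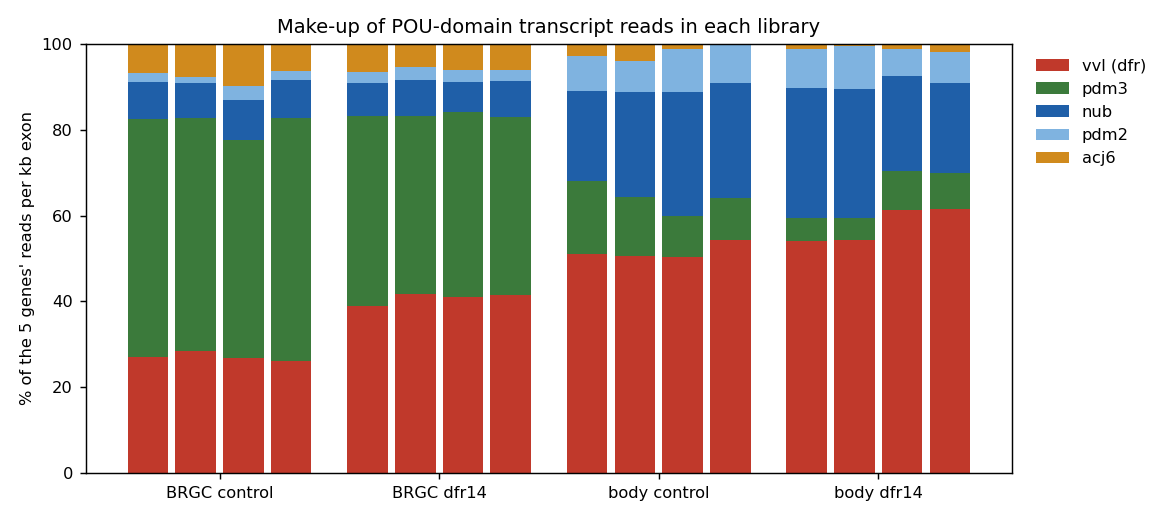
Make-up of the POU-domain reads in each of the 16 libraries: each bar is 1 library, and its segments (vertical axis, percent) are the shares of the 5 genes in their summed reads per kilobase of exon. The vvl segment grows from 26.1 to 28.5% in control BRGC to 38.8 to 41.8% in dfr14 BRGC, and the pdm3 segment is small in the body.

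Markers of other cell types moved with the BRGC comparison. Of the 5 measured tracheal markers, 2 were higher in dfr14 BRGC, Gasp and serp, both of which act in the chitinous lining of the trachea, and the summed tracheal level was 508 to 575 CPM in control and 642 to 835 CPM in dfr14. Of 6 ring gland markers, 2 were called lower, Start1 and dib, and the sum went from 267 to 304 CPM in control to 185 to 264 CPM in dfr14. The markers Akh (35.1 to 48.1 CPM, limma unadjusted p = 0.0354) and jhamt (13.7 to 16.6 CPM) had higher means in dfr14, neither of them called. Of 6 neuroblast markers 5 were lower. The sum of the 6 overlapped at 992 to 1745 and 876 to 1266 CPM, but most of it was pros, the marker not called. pros was at 1053 ± 351 CPM of a mean sum of 1308 CPM in control. In dfr14 it was at 970 ± 163 CPM of 1118 CPM, so the sum says little of the other 5. The hemocyte markers NimC1 and He (2 of 6) were higher, with sums that overlapped at 351 to 953 and 665 to 808 CPM. Of the other hemocyte markers, srp had a higher mean in dfr14 (limma unadjusted p = 0.00941) and was not called. Pxn (206 to 160 CPM), Hml (278 to 253 CPM) and Col4a1 (128 to 109 CPM) had lower means, none of them called. The muscle markers TpnC47D and wupA (2 of 6) were higher, with sums that overlapped at 92 to 158 and 121 to 192 CPM. The marker lists for neurons, glia, fat body, gut and testis had no gene called and none with an unadjusted p under 0.05. 1 gene each was called among the eye-antennal disc markers (ato, lower), the wing disc markers (ap, lower) and the salivary gland markers (sage, higher). Against ap, the wing disc marker zfh2 had a higher mean in dfr14 (340 to 459 CPM, limma unadjusted p = 0.0279). Against sage, the salivary gland marker Sgs4 had a lower mean (1.05 to 0.176 CPM, limma unadjusted p = 0.0467). Neither zfh2 nor Sgs4 was called. The part of these cell types in the level of vvl was not tested, and in bulk tissue fewer cells of a type and less RNA per cell cannot be told apart.

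pdm3, which acts in olfactory receptor neurons and in the targeting of axons, was by its level per length the main POU-domain gene of the control BRGC. Its control libraries read 146.3, 136.4, 137.4 and 166.8 CPM and its dfr14 libraries 128.9, 101.1, 131.0 and 129.9 CPM. All dfr14 libraries lay below the control libraries, with library 2 of dfr14 the lowest. The log2 fold change was -0.26 with an SE of 0.10 (95% interval -0.49 to -0.028), and it did not pass the adjustment over all genes (adjusted p = 0.122, limma). With scaling to library size alone it was -0.35 and passed (limma adjusted p = 0.0404), and set against the median of all genes it was -0.25 under either scaling. Without dfr14 library 2 the deposited values gave a log2 fold change of -0.17 (limma adjusted p = 0.207).

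In the body pdm3 was at 19.0, 15.1, 10.2 and 12.2 CPM in control and 7.65, 8.33, 13.9 and 12.6 CPM in dfr14, so the genotypes overlapped. The log2 fold change was -0.42 with an SE of 0.29 (95% interval -1.08 to 0.25, limma adjusted p = 0.646). The levels of the tissues were not tested against each other, since the tables were scaled separately, but control BRGC stood at 147 ± 14.1 CPM and control body at 14.1 ± 3.84 CPM (SD, n = 4). Of the genes that lie in the introns of pdm3, those measured were in the body table and none was in the BRGC table: CG8701 was at 0 to 300 CPM and CG2127 at 0 to 270.5 CPM in control, and each had 0 reads in control body library 4, where pdm3 had 266.

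acj6, which selects odorant receptors and axon targets of olfactory neurons and activates the cholinergic gene locus, was at 14.5, 16.01, 21.6 and 15.4 CPM in control BRGC and at 15.6, 10.8, 15.2 and 15.8 CPM in dfr14 BRGC. The genotypes overlapped, with the highest library in control and the lowest in dfr14. The log2 fold change was -0.23 with an SE of 0.16 (95% interval -0.60 to 0.14, limma adjusted p = 0.367). Without dfr14 library 2 it was -0.10 (limma adjusted p = 0.659). The 2 genes of the cholinergic locus did not pass the test either: ChAT, which makes acetylcholine, had a log2 fold change of -0.19 (limma adjusted p = 0.399) and VAChT, its vesicular transporter, one of -0.22 (limma adjusted p = 0.490).

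In the body acj6 was close to the limit of detection. It had 52, 92, 24 and 0 reads in the control libraries and 20, 13, 38 and 38 reads in the dfr14 libraries, that is 2.53, 3.54, 1.06 and 0 CPM against 1.35, 0.633, 1.38 and 2.16 CPM. The 0 of control library 4 allows a level of up to 0.137 CPM, counting error only. The log2 fold change over all 8 libraries was 0.44 with an SE of 1.14 (95% interval -2.204 to 3.09, limma adjusted p = 0.967), and without control library 4 it was -0.70 (limma adjusted p = 0.463), so that 1 library set its sign.

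acj6 in the body moved with the testis markers. In the libraries with 0, 13 and 92 reads of acj6 the 6 testis markers summed to 0.046, 42.8 and 342 CPM, and 5 of the 8 body libraries held the same rank by acj6 level and by testis sum. Pp1-13C, a phosphatase gene in an intron of acj6, ran from 0 to 36.5 CPM in control body and was also at 0 reads in library 4. The part of testis tissue in the acj6 level was not tested.

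**Figure D3:**
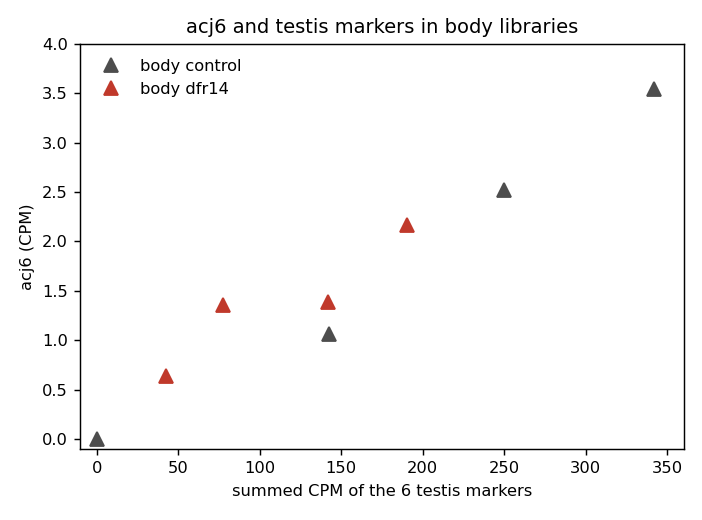
Level of acj6 (vertical axis, CPM) against the summed level of the 6 testis markers (horizontal axis, CPM) in the 8 body libraries; grey is control and red dfr14. The control library with 0 reads of acj6 has a testis sum of 0.046 CPM, and the library with the highest acj6 level, 3.54 CPM, has the highest sum, 342 CPM.

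nub and pdm2 are related paralogs that act together in the succession of neuroblast identities and in the wing, and nub also sets the level of immune genes in the gut and fat body. In BRGC nub read 22.4, 20.2, 24.6 and 25.6 CPM in control and 21.8, 19.9, 21.1 and 25.3 CPM in dfr14. The groups lay over each other, with a log2 fold change of -0.076, an SE of 0.11 and a 95% interval of -0.32 to 0.17 (limma adjusted p = 0.675). pdm2 read 4.76, 3.12, 7.87 and 5.02 CPM in control and 6.50, 6.17, 7.23 and 6.89 CPM in dfr14, with 74 to 189 reads per library. Control library 3 was the highest of all 8 and the other 3 control libraries were below every dfr14 library. The log2 fold change of pdm2 was 0.43 with an SE of 0.24 (95% interval -0.11 to 0.98, limma adjusted p = 0.256). Without control library 3, the only one to overlap dfr14, it was 0.66 and passed (limma adjusted p = 0.0477). Without control library 2, the lowest, it was 0.22 (limma adjusted p = 0.478).

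In the body nub read 23.2, 26.4, 30.3 and 32.2 CPM in control and 41.6, 45.9, 33.4 and 30.5 CPM in dfr14. The groups overlapped through dfr14 library 4 alone. The log2 fold change was 0.42 with an SE of 0.18 (adjusted p = 0.354, limma). pdm2 read 7.92, 6.85, 9.13 and 9.72 CPM in control and 11.1, 13.3, 8.38 and 9.22 CPM in dfr14, with a log2 fold change of 0.31, an SE of 0.22 and a limma adjusted p of 0.665. Both values depend on the scaling. With library size alone they were 0.18 for nub and 0.069 for pdm2 (limma adjusted p = 0.557 and 0.958). Set against the median of all genes, nub was at 0.31 as deposited and 0.30 with library size alone, and pdm2 at 0.19 under either scaling. In CPM both paralogs were highest in dfr14 libraries 1 and 2. These libraries had the lowest scaling factors of the body, 0.798 and 0.868. In the same libraries vvl was at its lowest in dfr14 body, 67.7 and 75.0 CPM. pdm3 was at its lowest in the body there, 7.65 and 8.33 CPM. The fat body markers, like nub and pdm2, were highest in these libraries, at 117200 and 88210 CPM against 37490 to 73570 CPM in the other 6 libraries. The hemocyte markers were highest in the same libraries, at 1198 and 2148 CPM against 317 to 721 CPM. The part of the scaling, of the fat body and of hemocytes in the levels of nub and pdm2 was not tested. The genotype effect on nub was 0.50 higher in the body than in BRGC (SE 0.21), and this difference missed the threshold after adjustment over 9256 genes (adjusted p = 0.291, limma).

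The ratio of nub to pdm2 reads asks whether the paralogs kept their proportion. In BRGC it was 3.12 to 6.45 in control and 2.91 to 3.66 in dfr14, a difference of -0.52 in the mean log2 ratio (exact two-sided permutation test over the 70 ways to assign the genotypes, p = 0.114, where the smallest possible p is 0.0286). In the body it was 2.92 to 3.85 in control and 3.30 to 3.99 in dfr14, a difference of 0.12 (exact permutation test, p = 0.286). Control BRGC library 3 had the lowest control ratio, 3.12, and it alone lay within the dfr14 range. Leaving it out gave a difference of -0.71 and fixed the exact permutation p at its smallest value, 0.0286. That p is therefore no evidence of a shift. Without control BRGC library 2 the difference was -0.36 (exact permutation test, p = 0.2).

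**Figure D4:**
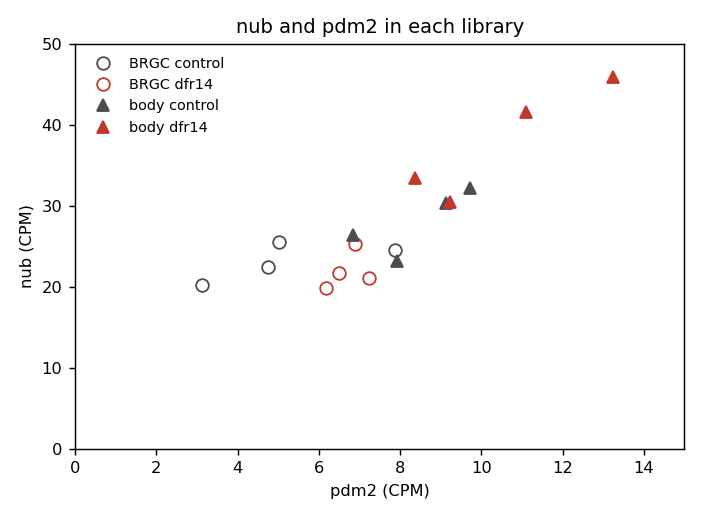
Level of nub (vertical axis, CPM) against that of its paralog pdm2 (horizontal axis, CPM) in each of the 16 libraries; open circles are BRGC, filled triangles body, grey control and red dfr14. The body libraries lie along 1 band in which both genes are highest in 2 dfr14 libraries. Those had the lowest scaling factors of the body, and the part of the scaling was not tested. In control BRGC pdm2 spreads from 3.12 to 7.87 CPM while nub stays between 20.2 and 25.6 CPM.

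**Figure D5:**
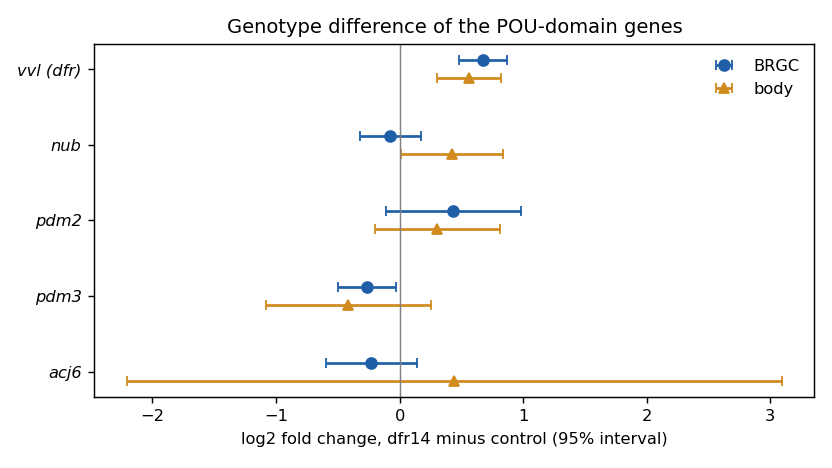
Log2 fold change, dfr14 minus control, of each POU-domain gene (horizontal axis) with its 95% interval from limma; circles are BRGC and triangles body. vvl lies to the right of 0 in both tissues, at 0.68 and 0.56, and the interval of acj6 in the body runs from -2.204 to 3.09.

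Counted over the family, 1 of the 5 members was called in BRGC, vvl, higher in dfr14. Among all genes tested 16% were called there, 10.1% higher and 5.90% lower, so the family count is near the background. In the body 0 of 5 were called by limma, with 2 (vvl and nub) at an unadjusted p under 0.05, beside 1.41% of all genes called, 1.09% higher and 0.328% lower. With voom weights, too, none was called in the body. In CPM as scaled in the deposited values, the genotypes did not overlap for vvl and pdm3 in BRGC, 2 of 5 beside 22.8% of all genes. In the body this held for vvl alone, 1 of 5 beside 9.15%, and by counted reads alone vvl overlapped there. The difference between tissues was called for 0 of 5 members (limma, with nub alone at an unadjusted p under 0.05) and for 1.29% of the 9256 genes in both tables.

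Genes known to work with or under these factors were counted from fixed lists. Of 10 tracheal partners and targets of dfr, 1 was higher in dfr14 BRGC and 1 lower, beside 10.1% and 5.90% of all genes, so the count is about that of the background, with a median log2 fold change of 0.025 beside -0.015 for all genes. The lower gene was D (Dichaete), a Sox factor that partners with Dfr in the midline, which fell from 51.4 ± 4.27 to 26.9 ± 3.58 CPM (log2 -0.94, SE 0.11, limma adjusted p = 0.000465). The higher gene was knrl, a nuclear receptor-like factor of the trachea (10.9 ± 2.46 to 18.0 ± 2.50 CPM, limma adjusted p = 0.0221). In the body none of the 10 passed, with 1 at an unadjusted p under 0.05. That gene, tgo, is the common partner of bHLH-PAS factors (log2 0.43, limma adjusted p = 0.171).

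Of 7 prothoracic gland targets of dfr, 4 fell in BRGC (3 with voom weights), beside 5.90% of all genes called lower there. The median log2 fold change of the list was -0.61, beside -0.015 for all genes. All 4 act in the making of ecdysone: sad went from 123 ± 7.69 to 62.1 ± 17.5 CPM, spok from 186 ± 42.8 to 111 ± 7.40 CPM, dib from 12.5 ± 3.13 to 6.16 ± 1.67 CPM and nvd from 29.1 ± 6.89 to 18.7 ± 1.64 CPM. The study centred on such targets in these libraries, so no independent evidence comes from their direction. In the same libraries 4 of the 6 ring gland markers had lower means in dfr14, 2 of them called, while Akh and jhamt had higher means. The sums of the 6 are given above. Of these markers dib, phm and sro stand in both lists, so the lists are not separate. The part of ring gland content in these levels was not tested. In these same BRGC libraries the vvl count was higher, not lower. In the body none of the 7 passed, with 1 at an unadjusted p under 0.05 (median -0.16 beside 0.12 for all genes, which scaling to library size moves to -0.12, and list medians with it).

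Of 9 measured neuroblast temporal factors, the series in which nub and pdm2 take a place, none was called in BRGC by limma and none had an unadjusted p under 0.05 (median 0.099). In the body none of 9 was called either, although 3 (cas, lin-28 and Kr) had an unadjusted p under 0.05. cas, which follows nub and pdm2 in the embryonic series and represses them, was at 0.539 ± 0.32 CPM in control body and 4.26 ± 1.92 CPM in dfr14 body (limma adjusted p = 0.0746). Of 13 optic lobe temporal factors, 8 fell in BRGC (median -0.45), beside 5.90% of all genes called lower there. Among them were Oaz (60.9 ± 4.26 to 34.4 ± 4.89 CPM), erm (34.7 ± 4.80 to 17.7 ± 2.75 CPM) and hbn (20.2 ± 1.53 to 10.9 ± 1.85 CPM). None of the 9 measured in the body passed or had an unadjusted p under 0.05 (median -0.19). D belongs to this list as well. The neuroblast markers fell in the same comparison, 5 of 6 (mira, wor, dpn, ase and insc, median -0.57), and their part in the levels of the temporal factors was not tested.

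Of 11 transcription factors of olfactory neurons, in which acj6 and pdm3 act, none was called in either tissue, while 4 in BRGC and 1 in the body had an unadjusted p under 0.05, with medians of -0.22 in BRGC and 0.071 in the body. sqz, a zinc finger factor, came nearest in BRGC (log2 -0.28, limma adjusted p = 0.0536). The wing disc patterning genes, to which nub belongs by its function, had 1 of 10 called lower in BRGC, beside 5.90% of all genes, so the count is near the background. This gene was ap, which sets dorsal identity (96.0 ± 10.7 to 66.9 ± 9.71 CPM, limma adjusted p = 0.0179). In the body none was called or had an unadjusted p under 0.05. Of 14 immune genes under control of POU factors, 7 were measured in BRGC. There CecA2, CecC and the NF-kappaB factor Rel rose (3 of 7, beside 10.1% of all genes) and AttA fell (1 of 7, beside 5.90%). Their peptide genes were near the floor, CecA2 at 0.326 ± 0.074 and 1.73 ± 0.87 CPM and AttA at 1.17 ± 0.32 and 0.245 ± 0.12 CPM, whereas Rel went from 83.2 ± 8.78 to 107 ± 5.30 CPM. None of the 14 passed in the body, with 2 at an unadjusted p under 0.05 (AttA lower, Rel higher). The median there was -1.17 beside 0.12 for all genes, with 11 of the 14 below 0 and 3 above, among them Rel (0.54). Control libraries spread widely for several peptide genes, such as DptB at 231 ± 280 and AttC at 86.6 ± 103 CPM. Where no gene of a list was called by limma, none was called with voom weights.

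The genes whose levels followed each member most closely were taken by the smaller of their Pearson correlations over the 8 BRGC and the 8 body libraries, among 8561 genes with a mean of at least 1 CPM in both. The libraries share their genotype groups, their depth and their tissue make-up, and the values are a description. For vvl they were mt:ND3 (r = 0.97 in BRGC and 0.97 in the body), a subunit gene of the mitochondrial genome, JhI-21 (0.96 and 0.98), an amino acid transporter gene, and CR45973 (0.95 and 0.99). All 3 were called higher in dfr14 BRGC, and in the body mt:ND3 and CR45973 were called higher while JhI-21 was not (log2 0.76, limma adjusted p = 0.110). In BRGC mt:ND3 was at 82.7 CPM in control and 725 CPM in dfr14. When the genotype means were removed none of the 3 remained among the closest, and bi, a T-box factor of the discs and optic lobe, came first (0.92 and 0.97).

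For pdm3 the closest gene was dac, a regulator of eye, leg and brain development (0.88 and 0.93), and it stayed first without the genotype means (0.89 and 0.93). For acj6 it was CG16854 (0.98 and 0.99), also first without them (0.99 and 0.99), and for pdm2 it was the septin gene Sep4 (0.87 and 0.95, then 0.87 and 0.93). For nub it was hep, a kinase of the JNK pathway (0.80 and 0.80), which gave way to NFAT (0.93 and 0.84). Among the members themselves nub and pdm2 went together in the body (r = 0.89 over 8 libraries, 0.84 without the genotype means) and less closely in BRGC (0.33 and 0.60). In the body pdm3 ran opposite to nub (-0.90, then -0.89), and in BRGC it did not (0.63, then 0.62).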

How the data were processed

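Expression was measured by stranded poly-A RNA-seq in 16 libraries. Per the labels and the study's methods, the authors used Trim Galore for trimming, STAR for alignment and featureCounts for counts per gene on BDGP6 (versions are not given in the sources used here). The deposited log2 values are log2 CPM (counts per 1000000 reads), made by the authors with edgeR from TMM-scaled libraries with a prior count of 2. Solving these values for the prior count gave whole reads for 100% of them within 0.001. CPM divide these reads by the TMM-scaled library size, and reads per kilobase use merged exons of the Ensembl BDGP6 annotation, whose release may differ from that used for counting (98.4% of BRGC and 98.6% of body gene identifiers matched). The tables were scaled separately, so tests stay within a tissue, except for the difference between the tissues' log2 fold changes.

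Genotypes were compared with limma 3.58.1 with an intensity trend (R 4.3.3) on the deposited log2 values, per tissue, with Benjamini-Hochberg adjustment over all genes and a threshold of 0.05. The fit was tested on simulated data with 200 changed genes. Fold changes understate the change of low genes because of the prior count. Named genes were all members, genes overlapping a member and the 3 genes most alike per member. From each list up to 4 genes with the smallest p in a tissue were named. Marker genes were named for passing the threshold, for an unadjusted p under 0.05, for going against their list or for standing in 2 lists. The members and the lists were chosen with earlier results of these data known. br, in 2 rows of each table, was left out of its list. A library's number is its position among the columns of its group, which have no replicate number of their own. The 16 further columns of values per sample were not used, nor were the authors' fold change, p-value and FDR columns. No pair of libraries of a group agreed within sampling noise (chi-square per gene at least 20.6). Alternatives were other scalings, prior counts, filters, variance models and leaving out each library. Gene and protein sequences were not used here.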

Additional observations from a re-analysis of the deposited data

Results flagged for a closer look

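Library 2 of dfr14 BRGC lay far below the other 3 libraries of its group for 2 members. pdm3 was at 101 CPM there against 128.9 to 131 CPM, a gap of 0.927 of the range of the group, and acj6 was at 10.8 CPM against 15.2 to 15.8 CPM, a gap of 0.877, both past Dixon's critical value for 4 libraries. Among the 20 groups examined (5 genes in 4 groups) chance alone marks about 1 in 20. This library also had the lowest summed neuronal markers (1027 CPM), neuroblast markers (876 CPM) and glial markers (579 CPM) and the highest gut markers (37.8 CPM) and tracheal markers (835 CPM) of the 8 BRGC libraries. Their part in the low levels was not tested.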

How the results depend on the processing

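vvl in BRGC was called under all 7 other settings (log2 0.59 to 0.69) and without each library (0.62 to 0.74), and vvl in the body under none (0.32 to 0.57, limma adjusted p 0.0656 to 0.460, and 0.52 to 0.63). No paired analysis was possible, since by the study's methods the tissues were taken from different larvae, and the columns carry no replicate numbers. Settings that ended or made a call or moved a count were scaling to library size alone (pdm3 in BRGC -0.35, limma adjusted p = 0.0404), voom weights (62 genes called in the body and 58 for the difference between tissues, against 177 and 119) and centring each library on its median log2 value, chosen after seeing the data (52 for the difference). Library size alone turned the split of calls to 782 higher and 988 lower in BRGC (980 and 574 as deposited), 113 and 81 in the body (136 and 41) and 25 and 87 for the difference (60 and 59), where RLE gave 41 and 78 and the median centring 20 and 32. Leaving out 1 library gave 901 to 1613 genes in BRGC (lowest without library 4 of either genotype, 914 and 901), 72 to 245 in the body (under 119 without control 1 or 2 or any dfr14 library, at 80, 72, 81, 88, 73 and 104) and 55 to 206 for the difference. Over the left-out libraries the log2 difference of pdm2 in BRGC ran from 0.22 to 0.66, that of acj6 in the body from -0.70 to 1.06 and the nub to pdm2 ratio in BRGC from -0.71 to -0.36. Differences between tissues turned sign for pdm2 without control BRGC library 2 (-0.35 to 0.087 over all), pdm3 without control body library 1 (-0.30 to 0.00068) and acj6 without control body library 4 (-0.47 to 1.29), none of them called. The causes were not tested. The values of pdm2 in BRGC (74 to 189 reads per library) and of acj6 in the body (0 to 92 reads) rest on the fewest reads.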
